A study of Homo sapiens with 8 samples.

Results

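The 4 genes described here are GATA4, GATA6, ZFPM1 and ZFPM2, which were taken by name from the 30755 genes of an RNA-seq table of ESO26 cells. ESO26 is an established line grown from an adenocarcinoma of the oesophagus. All 4 genes were in the table and all passed the filter on low values. The table holds 4 libraries: 2 from cells in which HNF4A, a nuclear receptor of liver and gut, was knocked down by small interfering RNA (siHNF4A), and 2 from control cells of the same line. What the control cells received, and for how long the knockdown ran, is not given in the labels. ChIP-seq peak lists come from 1 library for HNF4A and 1 for GATA4, the latter raised with an antibody to a Flag tag, so the tagged protein was assayed. How that protein was brought into the cells is not given, and no RNA-seq library is labelled as carrying it. Nothing in the labels says that libraries of a group came from separate cultures, so the p-values measure the spread between these libraries, which may be technical.

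GATA factors are zinc-finger transcription factors named after the short DNA word they bind. GATA4 and GATA6 are the members of endoderm and heart: in the gut they help to form the stomach and small intestine and to keep the epithelium's regional identity. ZFPM1 (FOG1) and ZFPM2 (FOG2) are large zinc-finger proteins that do not need to bind DNA themselves. They attach to the amino-terminal zinc finger of GATA factors and mostly bring in repressor complexes, although FOG1 also helps GATA1 to activate genes in red-cell precursors.

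The libraries carried the epithelial markers of the label. All 8 listed epithelial markers were in the table, with summed normalized counts of 90835 to 96267 in the control and 84958 to 85280 in the knockdown. Of these 8 markers limma called 6: EPCAM, KRT8, KRT18 and CLDN4 fell (to between 70.3% and 81.8% of control), and KRT19 (117%) and MUC1 (198%) rose. Summed markers of other cells were low: 15.0 to 34.3 against 18.4 to 36.2 for squamous epithelium (3 of 5 in the table), 122 to 195 against 223 for fibroblasts (3 of 5), 118 to 133 against 77.1 to 95.7 for immune cells (3 of 5) and 15.2 to 24.6 against 47.2 to 64.0 for endothelium (2 of 3), each given as control against knockdown. TP63, PECAM1 and CD3E have no row, and of the tested markers of other cells VWF (endothelium) and KRT14 (squamous epithelium) were called higher. KRT5, the other tested squamous marker, was at 37.2% of control and was not called (log2 fold change -1.21; limma, adjusted p = 0.190). VWF and KRT14 passed the filter, a mean of 10, only through the knockdown group (control means 7.62 and 1.46). KRT5 passed it only through the control group (knockdown mean 8.33). The knockdown libraries also listed fewer genes at 0 (4260 and 4362) than the controls (5479 and 5640), and their relative depth was the higher. The part of these markers and of depth in the results was not tested. HNF4A itself fell to 25.7% of its control mean (limma, adjusted p = 1.59e-05). In limma's moderated test 2202 of 15577 genes averaging 10 or more normalized counts had an adjusted p under 0.05, which is 14.1% and is the background for the counts below. Of all tested genes 6.02% were called higher and 8.11% were called lower in the knockdown, and their median log2 fold change was -0.0073.

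GATA4 had the lower values in the knockdown, GATA6 hardly differed between the groups, and both FOG genes had the higher values. None of the 4 differences passed the threshold in limma (0 of 4 called, against 14.1% of all tested genes), and 2 of the 4, GATA4 and ZFPM2, had an unadjusted p under 0.05. In 3 of the 4 genes the control and knockdown libraries did not overlap, which was also true of 57% of all tested genes.

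**Figure D1:**
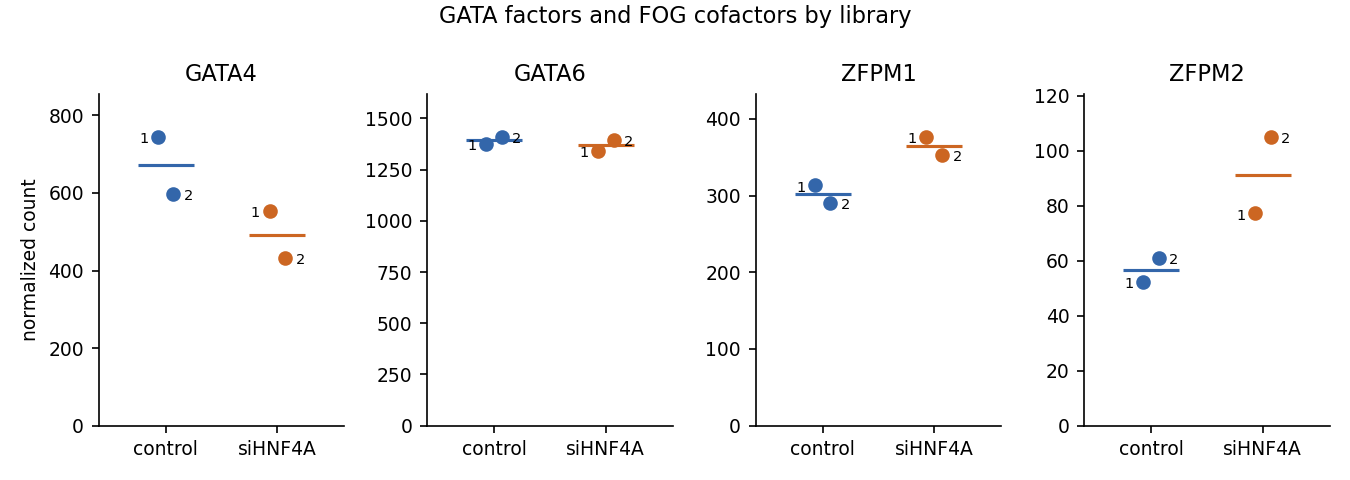
Normalized counts of GATA4, GATA6, ZFPM1 and ZFPM2 in each of the 4 libraries (points, with the library number beside each) and the group means (lines), with axes from 0. GATA4 lies lower in both knockdown libraries (432 and 553) than in both controls (597 and 745), the GATA6 points overlap, and both FOG genes lie higher in the knockdown.

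GATA4 was listed at 745 and 597 normalized counts in control libraries 1 and 2, and at 553 and 432 in knockdown libraries 1 and 2. Both knockdown libraries lay under both controls, and the gap between the nearest pair, control 2 and knockdown 1, was smaller than the gap between the libraries of either group. The control mean was 671 ± 104 and the knockdown mean 493 ± 85.3 (SD, n = 2 in each group), so the knockdown stood at 73.4% of the control. The log2 fold change was -0.45 (standard error 0.15, 95% interval from -0.77 to -0.12; limma, adjusted p = 0.0709). The size of this change exceeded that of 80.5% of tested genes. In bulk libraries, fewer cells with GATA4 mRNA and less of it per cell cannot be told apart. Without control 2 the change was -0.61 and passed the threshold (adjusted p = 0.0104 in limma), and it was -0.29 without control 1, -0.62 without knockdown 1 and -0.27 without knockdown 2.

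GATA4 was also more variable between libraries of a group than most genes of its level. The log2 difference of library 1 minus library 2 came to 0.32 for the controls and 0.35 for the knockdown libraries. Among 4677 genes with a mean within 2-fold of that of GATA4, the median size of this difference was 0.11 in each group. The GATA4 difference exceeded that of 91.7% of these genes in the control and of 95.1% in the knockdown.

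GATA6 was listed at 1377 and 1410 normalized counts in the control libraries and at 1342 and 1396 in the knockdown libraries. The groups overlapped, since knockdown 2 lay between the controls. The means were 1393 ± 23.8 and 1369 ± 38.2 (SD, n = 2 in each group), a knockdown level of 98.3% of the control. The log2 fold change was -0.025 (standard error 0.076; limma, adjusted p = 0.864). Its 95% interval ran from -0.20 to 0.14, and the sign turned to positive after quantile normalization (0.021) and after rescaling to equal totals (0.014). Only 6.73% of tested genes had a change of smaller size.

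The ratio of GATA4 to GATA6 within a library does not depend on how the libraries were scaled to each other. It was 0.541 and 0.423 in the controls, and the knockdown libraries had 0.412 and 0.310. The groups did not overlap, but control 2 and knockdown 1 differed by little. The log2 ratio was lower by 0.42 in the knockdown (a difference of -0.42), and an exact two-sided permutation test gave p = 0.33, the smallest p that 2 libraries against 2 allow. The difference lay between -0.63 and -0.22 when any 1 library was left out, and it was nearest 0 without knockdown 2 and next without control 1 (-0.25). Because the 2 genes differ in transcript length and no transcript lengths were used here, the ratio says nothing of which gene had more mRNA molecules.

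GATA6 has a head-to-head partner, the noncoding RNA gene GATA6-AS1, whose start lies 621 bases from that of GATA6 on the opposite strand in RefSeq. GATA6-AS1 was listed at 34.0 and 36.0 normalized counts in the controls and at 32.6 and 35.4 in the knockdown libraries, so these groups overlapped as well. Its log2 fold change was -0.042 (standard error 0.30; limma, adjusted p = 0.945), and turned to 0.017 without knockdown 1. The 250 bases before each of the 2 start sites are shown because neither gene of this divergent pair was called. They are from RefSeq (GRCh38.p14), read 5′ to 3′ on the strand of each gene, at chr18:22169339-22169588 on the plus strand and chr18:22168969-22169218 on the minus strand.
GATA6: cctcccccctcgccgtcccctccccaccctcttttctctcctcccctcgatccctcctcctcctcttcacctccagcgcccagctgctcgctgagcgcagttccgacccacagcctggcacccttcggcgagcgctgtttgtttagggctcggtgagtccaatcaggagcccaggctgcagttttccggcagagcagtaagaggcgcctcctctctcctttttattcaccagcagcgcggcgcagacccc
GATA6-AS1: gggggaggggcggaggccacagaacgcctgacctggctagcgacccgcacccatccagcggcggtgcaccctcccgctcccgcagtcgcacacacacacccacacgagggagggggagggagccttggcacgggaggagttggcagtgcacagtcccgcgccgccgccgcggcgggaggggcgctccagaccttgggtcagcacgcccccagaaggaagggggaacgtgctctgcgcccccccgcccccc
No letter is in capitals, as neither window held the GATA words AGATAA and TGATAA, the words AGATAG and TGATAG, or the HNF4 half-site word CAAAG on either strand, which says only that these letters are not in these windows. Of 35114 such windows in the RefSeq table, 22.3% held 1 of the 4 GATA words and 42.1% held CAAAG. G and C made up 64.4% of the GATA6 window and 74.4% of the GATA6-AS1 window, against a median of 58% over all windows.

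Of the FOG cofactors, ZFPM1 was listed at 313 and 291 normalized counts in the controls and at 377 and 353 in the knockdown libraries. Both knockdown libraries lay above both controls, and the libraries of a group differed by little. The means were 302 ± 15.99 and 365 ± 16.7 (SD, n = 2 in each group), a knockdown level of 121% of the control. The log2 fold change was 0.27 (standard error 0.12, 95% interval from -0.0034 to 0.55; limma, adjusted p = 0.178). ZFPM1 lies on chromosome 16 and overlaps the antisense gene ZFPM1-AS1 in RefSeq. The use of strand in the counting is not given in the sources used here, so reads of the antisense gene could be part of its value.

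ZFPM2 had the lowest counts of the 4 genes, with 52.2 and 61.1 in the controls, while the knockdown libraries had 77.2 and 105. The groups did not overlap, and the knockdown libraries lay further apart than the controls. The means were 56.7 ± 6.27 and 91.1 ± 19.7 (SD, n = 2 in each group), a knockdown level of 161% of the control. The log2 fold change was 0.66 (standard error 0.25, 95% interval from 0.11 to 1.22; limma, adjusted p = 0.108). The change was 0.44 without knockdown 2 and 0.88 without knockdown 1. ZFPM2 lies on chromosome 8, the chromosome that also carries GATA4, and overlaps ZFPM2-AS1 and 3 other noncoding RNA genes in RefSeq.

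Among the other GATA genes, none was called (0 of the 4 tested GATA family genes in limma, with an unadjusted p under 0.05 for 2 of them, GATA4 and TRPS1). GATA1 and GATA2, the factors of blood-cell lineages, were listed at 0 to 1.08 and at 0 to 4.87 normalized counts and were not tested. GATA3, a factor of T cells and of breast and urothelial epithelium, was listed at 3.71 and 26.1 in the controls and at 29.8 and 21.0 in the knockdown libraries. Its log2 fold change of 1.20 (standard error 0.71, adjusted p = 0.298 in limma) rested on the low control 1: without that library it was -0.057, and without control 2 it was 2.47 and passed the threshold (adjusted p = 0.0087). TRPS1, an atypical GATA-type protein that represses transcription, was listed at 23.2 and 39.3 in the controls and at 59.1 and 60.9 in the knockdown libraries. Its groups did not overlap, and its log2 fold change was 0.97 (standard error 0.32; limma, adjusted p = 0.075). Without control 2 it passed the threshold, at 1.33 (adjusted p = 0.0174), and without control 1 it was 0.60 (adjusted p = 0.243).

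The noncoding gene listed as C8orf49, which RefSeq now calls LINC02905, starts just beyond the end of GATA4. Its values were 7.33 and 16.6 normalized counts in the controls, while the knockdown libraries had 2.70 and 5.07. The knockdown libraries were the lower pair, as for GATA4, but the mean was under the filter and the gene was not tested. GATA3-AS1 was listed at 3.43 in control 1 and at 0 in the other libraries.

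**Figure D2:**
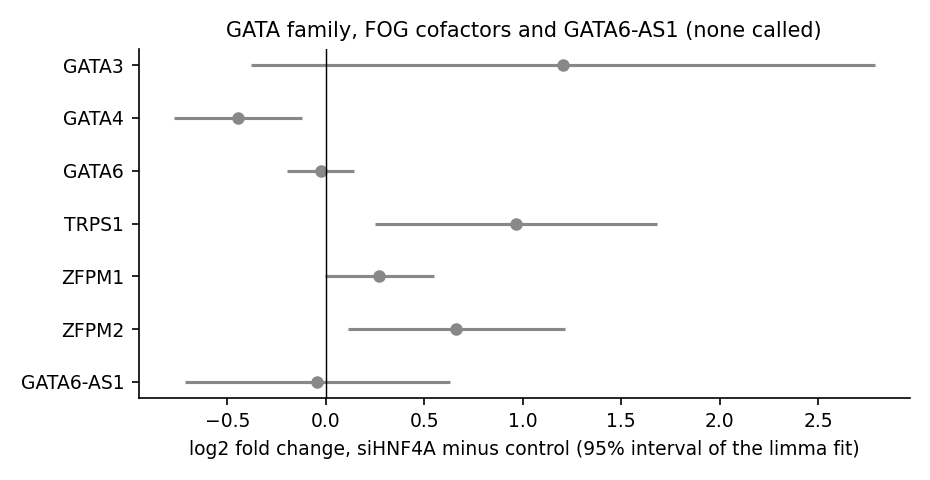
Log2 fold change (siHNF4A minus control) of the 7 tested genes of the GATA family, the FOG cofactors and GATA6-AS1, with the 95% interval of the limma fit. None was called: the intervals of GATA4, TRPS1 and ZFPM2 do not cross 0, that of GATA6 is the narrowest, and that of GATA3 is the widest.

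The genes that lie next to the 4 members in the genome were also examined. This set of 5 protein-coding genes on each side, in RefSeq order, was chosen after values had been seen. None of the 6 tested neighbours of GATA4 was called (14.1% of all tested genes were). NEIL2, a DNA repair glycosylase and the next protein-coding gene downstream, stood at 834 and 779 normalized counts in the controls and at 800 and 814 in the knockdown. XKR6, 5 places before GATA4, stood at 316% of control with few counts (6.77 and 5.45 in the controls, 21.2 and 17.4 in the knockdown; log2 fold change 1.51; limma, adjusted p = 0.0662). Its control mean of 6.11 was under the minimum of 10, so XKR6 passed the filter only through the knockdown group, where it was high. The neighbours of GATA4 ranged from -0.21 to 1.51, the value of XKR6, with a median of 0.037. The 9 tested neighbours of GATA6 had log2 fold changes between -0.38 and -0.058, with a median of -0.15. In 57% of all tested genes the groups did not overlap, and in 6 of these 9 neighbours they overlapped. Of these SNRPD1, a core protein of splicing particles, was the only one called (fell by 0.38 on the log2 scale, adjusted p = 0.0341 in limma), and the call was lost without control 2 (-0.22) and without either knockdown library (-0.43 without knockdown 1 and -0.32 without knockdown 2). It was also lost after quantile normalization (-0.33, adjusted p = 0.0522 in limma).

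Near ZFPM1, 1 of 4 tested neighbours was called: MVD, an enzyme of cholesterol synthesis, rose from 276 and 320 to 513 and 450 normalized counts (log2 fold change 0.69, adjusted p = 0.0075 in limma; 0.60 and not past the threshold without knockdown 1). Near ZFPM2, 2 of 3 tested neighbours were called, and both fell, opposite to the values of ZFPM2. Of all tested genes 14.1% were called, and sets of 3 or 4 genes are too small to be set against that share. EIF3E, a subunit of a translation initiation factor, fell by 0.29 (adjusted p = 0.0072 in limma; -0.25 and not past the threshold without knockdown 2), and DCAF13, a ribosome-assembly protein, fell by 0.23 (adjusted p = 0.043). DCAF13 was not past the threshold without control 2 (-0.17), without either knockdown library, after quantile normalization (limma, adjusted p = 0.0792) or after rescaling to equal totals (0.0653).

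**Figure D3:**
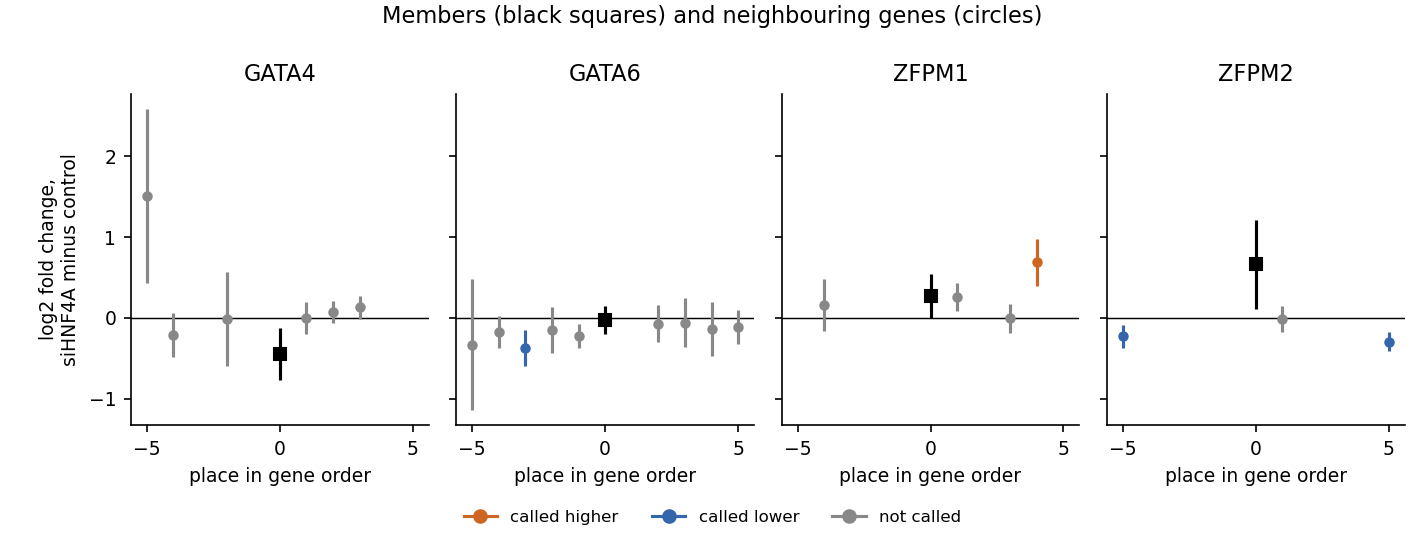
Log2 fold change (siHNF4A minus control, with the 95% interval of the limma fit) of each member (black squares at place 0) and of the tested protein-coding genes up to 5 places before or after it in RefSeq gene order. GATA4 lies under its neighbours, the neighbours of GATA6 lie between -0.38 and -0.058, and ZFPM2 lies above its neighbours.

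FOG proteins act largely through the NuRD complex, which joins histone deacetylases to a chromatin remodeller, and through the CtBP corepressors. All 15 genes of this list were tested and 2 were called, a share near the 14.1% of all tested genes. Both were higher (6.02% of all tested genes were) and none was lower (8.11%). HDAC1, a histone deacetylase of NuRD, rose from 4189 and 4117 to 5624 and 5163 normalized counts (log2 fold change 0.38, standard error 0.063, adjusted p = 0.0046 in limma). CHD3, a remodelling ATPase of the complex, rose from 3763 and 3097 to 4285 and 4400 (0.35, adjusted p = 0.0268). Without knockdown 1 neither was called (HDAC1 0.31 with adjusted p = 0.0526, CHD3 0.37 with adjusted p = 0.100), and CHD3 was also not called without control 2 (0.21) or without knockdown 2 (0.33). The paralogs of the called genes had other values: HDAC2 stood at 5451 ± 98.7 in the control and 4962 ± 110 in the knockdown (adjusted p = 0.150 in limma), and CHD4 at 7736 ± 32.4 and 7608 ± 241 (adjusted p = 0.809; SD, n = 2 in each group for both). MTA2, another subunit, had a log2 fold change of -0.17 (adjusted p = 0.0728 in limma). After quantile normalization MTA2 was at -0.11 and HDAC2 moved from -0.14 to -0.087. Over the list the median log2 fold change was -0.040.

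GATA4 and GATA6 share promoters with other DNA-binding factors and with the acetyltransferases EP300 and CREBBP. Of 20 such partners 16 were in the table and 15 were tested: 4 were called (14.1% of all tested genes were), 1 higher (6.02%) and 3 lower (8.11%). The heart partners TBX5, TBX20 and HAND2 have no row in the table, and NKX2-5 was above 0 in 1 control library only, at 1.81. SP1, a general activator of GC-rich promoters, fell from 3101 and 2918 to 2331 and 2393 normalized counts (log2 fold change -0.35, adjusted p = 0.0083 in limma; -0.33 and not past the threshold without knockdown 1). SRF, which drives growth-response and muscle genes, fell from 1378 and 1519 to 1145 and 1187 (-0.31, adjusted p = 0.0346), and was not called without control 2, without either knockdown library or after quantile normalization (-0.27, adjusted p = 0.0514). NFATC4, a calcineurin-dependent factor, rose from 44.6 and 13.1 to 132 and 76.9 (2.0, standard error 0.49, adjusted p = 0.0245), and was not called without knockdown 1 (1.62) or knockdown 2 (2.39). It was 1.16 without control 2 and 2.85 without control 1, called in both. The value of the remaining called partner is not reported. EP300 (-0.14), CREBBP (-0.00032) and the intestinal factor CDX2 (0.072, and 0.039 to 0.12 over the alternatives) were not called. Of the list as a whole 0 were called without knockdown 1 and 1 without knockdown 2, where the calls over all genes also went down, from 2202 to 985 and 906.

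Bone morphogenetic proteins (BMPs) and activins are extracellular signals that raise GATA4 and GATA6 in early endoderm and heart, through receptor kinases and SMAD proteins. Of 22 genes of this pathway 20 were tested and 3 were called, 1 higher and 2 lower. This is near the share of all tested genes (14.1% called, 6.02% higher and 8.11% lower). BMPR1A, a type I BMP receptor, fell from 661 and 747 to 371 and 472 normalized counts (log2 fold change -0.75, standard error 0.13, adjusted p = 0.0059 in limma). BMPR2, the type II receptor that pairs with it, rose from 1895 and 1801 to 2121 and 2304 (0.26, adjusted p = 0.0463), and was not called without control 2 or without either knockdown library. SMAD5, a BMP-responsive SMAD, fell from 1207 and 1101 to 850 and 600 (-0.69, adjusted p = 0.0122), with -0.44 and no call without knockdown 2. The count of called genes was 1 without knockdown 2. The ligand BMP7 (0.16), and SMAD3 (-0.14) and SMAD2 (-0.093) of the activin branch, were not called. SMAD3 passed the threshold without control 1 (-0.30; limma, adjusted p = 0.0329) and was 0.017 without control 2, BMP7 was 0.088 without control 1, and SMAD2 lay between -0.15 and -0.039 with 1 library left out. Over the list the median log2 fold change was -0.14.

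Of 32 genes regarded as targets of GATA4 or GATA6 in gut, stomach or heart, 29 were in the table and 19 were tested, and 11 were called (14.1% of all tested genes were), 9 lower (8.11%) and 2 higher (6.02%). Their median log2 fold change was -0.43. One of the 9 is HNF4A, which the siRNA targets, and without it 8 of 18 were lower with a median of -0.38. ALPI, DAB2 and REG4 passed the filter only through the group where they were high. Without these 3, a count added after values were seen, 8 of 16 were called, 7 lower and 1 higher, against 14.4% of the 14976 genes with both group means at 10 or above. The list names genes by their link to GATA factors, and several of them are known to answer to HNF4A as well. It was chosen with earlier results of these data known, so its share of calls is no test of GATA targets. The 11 calls became 7 without control 2, 6 without knockdown 1 and 6 without knockdown 2, in fits where the calls over all genes went from 2202 to 1916, 985 and 906.

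The 3 cell-cycle genes of the list fell. CCND2, a D-type cyclin, went from 9988 and 9741 to 6473 and 5931 normalized counts (log2 fold change -0.67, standard error 0.060, adjusted p = 1.96e-04 in limma). CCND1, its close relative, went from 410.4 and 408 to 175 and 99.1 (-1.63, adjusted p = 0.0019). CDK4, the kinase that both cyclins activate, fell by 0.33 (adjusted p = 0.0173), and by 0.27 with no call without knockdown 1. CDK4, and ALPI, SI, ADA and IHH described next, were named after their values were seen.

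Among the epithelial genes CLDN2, a pore-forming tight-junction protein, fell from 416 and 495 to 235 and 210 normalized counts (log2 fold change -1.03, standard error 0.14, adjusted p = 0.0016 in limma). REG4, a secreted lectin of gut endocrine and goblet cells, rose from 5.06 and 8.62 to 51.4 and 59.3 (2.88, adjusted p = 0.0019). DAB2, an endocytic adaptor, fell from 27.1 and 41.7 to 8.23 and 7.57 (-1.96, adjusted p = 0.0147). The calls of CCND2, CCND1, CLDN2 and REG4 held with any 1 library left out, whereas DAB2 was called only without control 1.

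Of the brush-border enzymes, intestinal alkaline phosphatase ALPI fell by 2.60 on the log2 scale (adjusted p = 0.0167 in limma; -1.71 with a pseudocount of 5; not past the threshold without either knockdown library, and under the filter, so not tested, without either control), and sucrase-isomaltase SI rose by 0.72 (adjusted p = 0.0384; not called without control 2, without either knockdown library or after quantile normalization, where it was 0.65 with adjusted p = 0.057). ADA, adenosine deaminase, fell by 0.79 (adjusted p = 0.0187; -0.67 and not called without knockdown 2). The secreted signal IHH fell by 1.19 (adjusted p = 0.0488) and was not called without control 2, without either knockdown library or after rescaling to equal totals (-1.15, adjusted p = 0.0578). FABP2 (0.061, and 0.0086 to 0.11 with 1 library left out), PDX1 (0.080) and LGR5 (0.098) were not called.

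**Figure D4:**
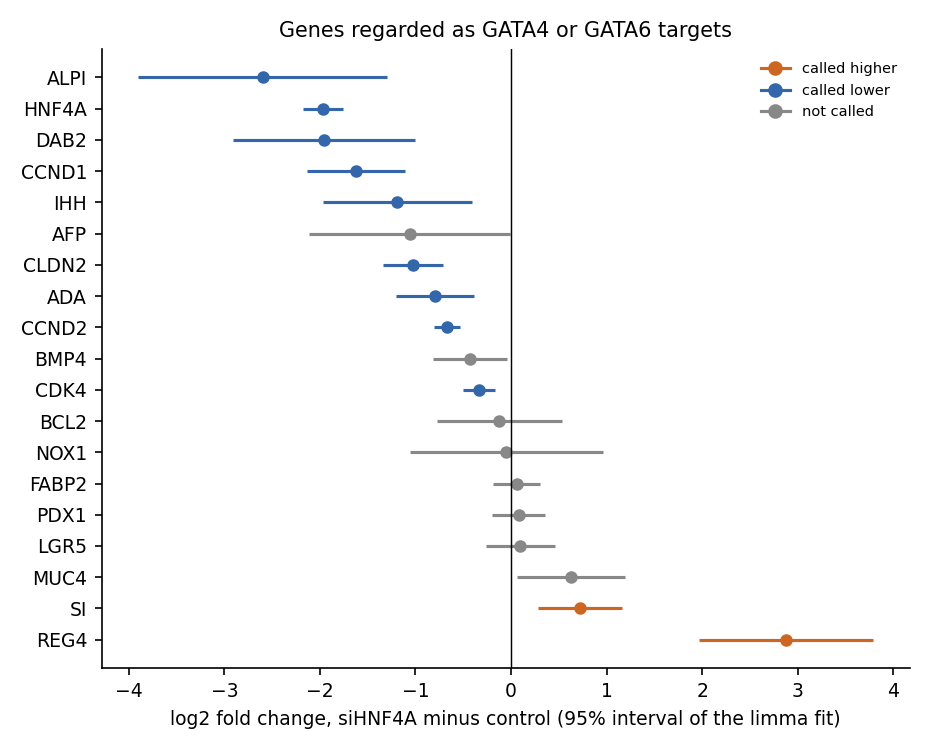
Log2 fold change (siHNF4A minus control) of the 19 tested genes regarded as GATA4 or GATA6 targets, with the 95% interval of the limma fit, coloured by call. The 9 called lower run from ALPI at -2.60 to CDK4 at -0.33, and the 2 called higher are SI at 0.72 and REG4 at 2.88. ALPI, DAB2 and REG4 had a mean under 10 in 1 group.

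Of the target genes 22 have an entry in the RefSeq promoter table, and in 11 of them at least 1 window of the 250 bases before a start held a GATA word (the same 4 words, both strands), against 26.2% of all 27303 genes with an entry. Of the called target genes 9 have an entry and 5 held a word. The stretch around the word nearest the start is shown for the 4 of these 5 other than HNF4A, with the word in capitals, since these are the called genes whose windows held one. The letters are from RefSeq (GRCh38.p14), 5′ to 3′ on the strand of the gene. That of SI is at chr3:165078535-165078594 (minus strand), CLDN2 at chrX:106918110-106918161 (plus strand), REG4 at chr1:119811550-119811609 (minus strand) and CDK4 at chr12:57752488-57752547 (minus strand).
SI: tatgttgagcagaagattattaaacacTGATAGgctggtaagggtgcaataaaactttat
CLDN2: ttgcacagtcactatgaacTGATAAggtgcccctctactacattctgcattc
REG4: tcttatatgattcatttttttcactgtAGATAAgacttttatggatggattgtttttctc
CDK4: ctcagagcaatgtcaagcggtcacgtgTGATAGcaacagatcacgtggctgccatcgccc
The word began 71 bases before the start of SI, 231 before CLDN2, 122 before REG4 and 210 before CDK4. A match is a description of the letters, not a binding site. Of these genes 2 rose (SI and REG4) and 2 fell (CLDN2 and CDK4).

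The genes with the pattern most like GATA4 over the 4 libraries were CPPED1, C7orf60 and HACE1, among 10917 genes with a mean of at least 100. Likeness was the root mean square difference of the centred log2 values, which was 0.047, 0.055 and 0.059. Genes picked in this way share the pattern of the member by choice, so the order and overlap of their libraries are no separate finding. CPPED1 was listed at 263 and 209 in the controls and at 180 and 145 in the knockdown libraries, so that it too had a high control 1 and a low knockdown 2. None of the 3 was called. For GATA6 the nearest genes were ORC1 (0.0040), N6AMT1 (0.0042) and ZNF746 (0.0052), all of them uncalled and with overlapping groups. For ZFPM1, added after values were seen, they were CCDC104 (0.0088), CLCN7 (0.011) and EXOG (0.012), of which CLCN7 was called higher (log2 fold change 0.28; limma, adjusted p = 0.0334).

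The peaks near the 4 genes were not placed. The submitters' processing notes name the build hg19 for the peak lists, the annotation used here is of GRCh38, and coordinates were not carried between them. By chromosome, the list for Flag-tagged GATA4 held 92 peaks on chromosome 8, which carries GATA4 and ZFPM2, 48 on chromosome 16, which carries ZFPM1, and 34 on chromosome 18, which carries GATA6. These are 3.53%, 1.84% and 1.30% of the 2607 GATA4 peaks, beside 3.57%, 4.26% and 1.35% of protein-coding genes on these chromosomes in RefSeq. For HNF4A the counts were 218, 214 and 56, or 3.97%, 3.90% and 1.02% of 5494 peaks. GATA4 peaks that overlapped an HNF4A peak by at least 1 base numbered 15 of 92 on chromosome 8, 10 of 48 on chromosome 16 and 3 of 34 on chromosome 18. These are 16.3%, 20.8% and 8.82% of the GATA4 peaks there, beside 17.4% (453 of 2607) over all chromosomes. Each list is from 1 library, so these counts have no replicate check, and none of the peaks was assigned to a gene.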

How the data were processed

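RNA was measured in 4 ESO26 libraries (2 siHNF4A, 2 control, grouped by title). The authors deposited normalized counts per gene, a fractional signal whose normalization, aligner and counting program are not given in the sources used here. Trim Galore, Bowtie, Bowtie2, Picard, MACS2 and hg19 are named, without roles, per the submitters' processing notes. Totals ran from 17912507 to 18613685 per library. Whole reads could not be recovered (of the values of genes above 0 in a single library, 54.8% to 66.4% lay within 0.02 of a multiple of 50% of the most frequent such value), so the absolute depth is unknown and no count model was fitted. From such values control 2 was read 1.10 times as deep as control 1, knockdown 1 was 1.36 times and knockdown 2 was 1.21 times as deep.

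Every gene averaging 10 or more was fitted with limma 3.58.1 in R 4.3.3 (trend, log2(normalized count + 1), no block) across the 2 groups. On that scale the fold changes of low genes are understated, and p-values were adjusted by Benjamini-Hochberg over all 15577 genes. The deposited peak lists hold the authors' score, fold, −log10 p and −log10 q, of which only positions were used.

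The members and lists were chosen with earlier results of these data known. Named genes are the members, detected GATA family and FOG list genes, up to 6 called and 3 uncalled genes per other list, and the 3 genes most like GATA4 and GATA6. Outside this rule, and after values were seen, the other called targets, the neighbours, the markers, the 4 heart partners with no row or near 0, and the genes most like ZFPM1 were named. Levels per transcript length, planned for the share of GATA4, were not computed because RefSeq gave gene spans only. The 4C libraries were not analysed here, and 1 called gene is not reported.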

Additional observations from a re-analysis of the deposited data

How the results depend on the processing

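The members' values rest on 2 libraries per group, and no alternative could give an exact permutation p under 0.33. GATA4 ranged from -0.45 to -0.41 with all libraries and from -0.62 to -0.27 with 1 left out, and it was past the threshold only with the replicate number as a block (-0.45, adjusted p = 0.0127 in limma, against a range of 0.0104 to 0.357 over all alternatives) and without control replicate 2 (-0.61). GATA4 differed by -0.43 between the libraries numbered 1 and by -0.46 between those numbered 2. Same-numbered libraries did not deviate together over 15577 genes (Pearson correlation of -0.019), so the number was not taken to pair them. GATA6 changed sign after quantile normalization (0.021), after rescaling to equal totals (0.014) and without siHNF4A replicate 1 (0.0031), with a range from -0.054 to 0.0031 over the fits with 1 library left out. ZFPM1 (0.22 to 0.33) and ZFPM2 (0.44 to 0.88) kept their sign and stayed short of the threshold in all 12 alternatives.

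The number of called genes was 726 without the filter, 0 without the variance trend (3524 had an unadjusted p under 0.05) and between 906 and 2413 with 1 library left out. Without the filter the calls were 0 of the BMP and activin list, 0 of the partner list, 5 of the target list and 1 of the corepressor list, and without the trend 0 in each of these lists. With a mean of at least 50 the target list had 7. The block gave 1 call in the GATA family, which is GATA4. With 1 library left out the calls ranged from 1 to 4 (BMP and activin), 0 to 4 (partners), 0 to 3 (GATA family), 6 to 10 (targets) and 0 to 3 (corepressors). The list of targets without HNF4A, chosen after the data were seen, had 10, and that without genes under the minimum in 1 group, also chosen then, had 8. Signs also turned for genes not called with all libraries. CHD4 was 0.053 after quantile normalization, 0.015 after rescaling and 0.0079 without siHNF4A replicate 2. CREBBP was 0.047 after quantile normalization, 0.039 after rescaling and between 0.049 and 0.053 without siHNF4A replicate 1 or control replicate 2. With 1 library left out, LGR5 ranged from -0.090 to 0.29, PDX1 from -0.033 to 0.19, SMAD3 from -0.30 to 0.017, GATA3 from -0.057 to 2.47 and GATA6-AS1 from -0.10 to 0.017. The causes were not tested. The planned windows around the genes for peaks, and the GATA4 share per length, were not run.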
